A study of Mus musculus with 4 samples.

Results

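Splicing factors were followed in naive CD4+ T cells from mouse spleen (strain C57BL/6) that had been cultured for 3 days under conditions that drive them towards regulatory T (Treg) cells. The genes were found by symbol: the hnRNP, SR, SF3A and SF3B, U2AF, PRPF, CELF and MBNL families, 65 of the 34745 genes in the deposited table. The libraries were Setd2-CD4 cre, numbered 22 and 24, and wild type, numbered 13 and 15. The labels name the gene Setd2 and a CD4-driven Cre but not the part of the gene that Cre removes, and they name no animal for any library, so p-values may measure technical spread only. SETD2 is the enzyme that trimethylates histone H3 at lysine 36 along transcribed genes, and this mark is known to be read by adaptor proteins that recruit splicing regulators. CD4-driven Cre is known to act from the thymic stage at which cells carry both CD4 and CD8, so it reaches both lineages. RNA of whole cultures was sequenced, so fewer cells of a type and less RNA per cell cannot be told apart.

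Introns are removed by the spliceosome, a machine of small nuclear RNAs and proteins. The U2AF proteins recognise the 3′ end of an intron, the SF3A and SF3B proteins belong to the U2 particle that binds the branch site, and the PRPF proteins include core parts of the later U4/U6.U5 particle. SR proteins mostly favour the use of an exon and many hnRNP proteins oppose it, while CELF and MBNL proteins set tissue-specific choices. In T cells, changes of splicing on activation are best known for CD45, whose exons are regulated by Hnrnpll. Levels of whole genes were measured here, so the splicing of transcripts was not.

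Levels are given as counts and as CPM, counts scaled to library size. The libraries held 15594506 and 15653717 counts in Setd2-CD4 cre, against 16030869 and 14599957 in wild type. Setd2 itself had 137.2 and 113.3 CPM in Setd2-CD4 cre against 136.9 and 145.6 CPM in wild type (log2 fold change -0.17, SE 0.14, Benjamini-Hochberg adjusted p = 0.44, edgeR quasi-likelihood test), which does not check a deletion of part of the gene. CD4 T cell markers summed to 4248 and 4166 CPM in Setd2-CD4 cre against 4161 and 3978 CPM in wild type, with 0 of 9 called (1 at an unadjusted p under 0.05). Foxp3, the defining Treg factor, fell: it had 31.9 and 75.8 CPM in Setd2-CD4 cre against 241.5 and 246.9 CPM in wild type (log2 fold change -2.18, SE 0.37, adjusted p = 0.023).

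The 63 genes that passed the filter on low counts were compared in a fit over all 13279 genes tested (edgeR quasi-likelihood test, Benjamini-Hochberg adjusted p under 0.05). Hnrnpa3 was higher in Setd2-CD4 cre, Prpf31 and Mbnl3 were lower, and 60 genes did not pass the threshold. Of all genes tested, 5.53% were called higher and 4.59% lower, and the 1 and 2 called among these 63 are no larger a share in either direction. Hnrnpa3 stood apart by size: its log2 fold change of 2.62 ranked 19th among the 10408 genes with a mean of 5 or more CPM. Of the 65 genes, Celf3 had 0 counts in both Setd2-CD4 cre libraries against 1 count in each wild-type library, Celf6 had 0 counts in all 4 libraries, and neither was tested. A count of 3 corresponded to between 0.184 and 0.201 CPM, and 0 counts allow a level up to there.

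**Figure D1:**
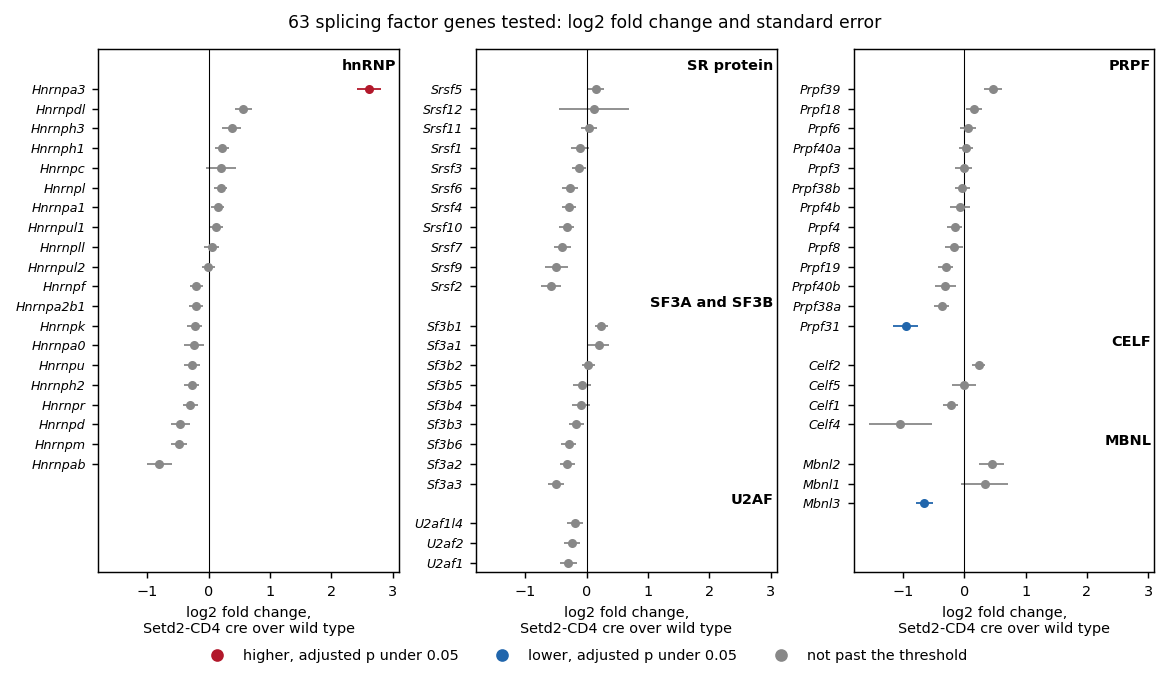
Log2 fold change of Setd2-CD4 cre over wild type (x axis) for the 63 splicing factor genes tested, by family; points are the fitted values and lines extend 1 standard error to each side. Hnrnpa3, at 2.62, lies far to the right of every other gene, and Prpf31 and Mbnl3 are the 2 genes called lower.

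Hnrnpa3 encodes an RNA-binding hnRNP of the A/B type. The gene (ENSMUSG00000059005) lies on the plus strand at chr2:75659261-75669407 of GRCm38. It had 2831 and 3082 counts in Setd2-CD4 cre libraries 22 and 24, against 606 and 385 counts in wild-type libraries 13 and 15. Scaled to library size, these were 189.5 and 196.7 CPM in Setd2-CD4 cre, against 37.1 and 25.8 CPM in wild type. Both Setd2-CD4 cre libraries lay far above both wild-type libraries, a gap much wider than that between the 2 libraries of either group. The rise was 6.13-fold (log2 fold change 2.62, SE 0.20, adjusted p = 0.0095, edgeR), and it passed the threshold in all 10 of the other fits that used its own row.

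The level of Hnrnpa3 cannot be read from its own row alone, because the genome holds many intronless near copies of its messenger RNA. With an identity of at least 95% over at least 500 bases, 31 annotated genes resembled its transcripts; 3 of them were in the table and 2 had any count. Of those, Gm9242 had 2 counts in wild-type library 13 and 0 elsewhere. The other, Gm6793 (ENSMUSG00000092086, chr8:112013433-112015036, minus strand), is a single exon annotated as coding. The Gm6793 transcript and the 11-exon Hnrnpa3 transcript aligned over 1457 bases with 7 mismatches and 2 gaps, an identity of 99.52%, and their longest identical stretch was 645 bases. Of the Hnrnpa3 transcript, 3693 bases lay outside the alignment. The following 100 coding bases were chosen as a stretch within 1 exon that holds the most mismatches, 3 of the 7, so they are not typical of the alignment. They come from exon 3 of Hnrnpa3 (chr2:75661709-75661808, plus strand) and from Gm6793 (chr8:112014742-112014841, minus strand). Even there, few positions can tell reads of the genes apart, and capitals mark the bases that differ.
Hnrnpa3: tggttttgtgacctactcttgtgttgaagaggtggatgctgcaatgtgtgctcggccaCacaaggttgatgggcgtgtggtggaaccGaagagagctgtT
Gm6793: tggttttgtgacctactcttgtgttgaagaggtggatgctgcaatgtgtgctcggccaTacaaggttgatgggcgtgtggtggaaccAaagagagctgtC
Counted from the first base shown, with the base of Hnrnpa3 first, the substitutions are C59T, G88A and T100C, and a read that covers none of them fits both genes.

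The counts of Gm6793 ran the other way. Gm6793 had 1366 and 1863 counts in Setd2-CD4 cre, against 2499 and 2420 in wild type, or 91.4 and 118.9 CPM in Setd2-CD4 cre against 153.2 and 162.3 CPM in wild type. Both Setd2-CD4 cre libraries were below both wild-type libraries, but the difference missed the threshold (log2 fold change -0.58, SE 0.16, adjusted p = 0.063, edgeR). Of the counts of both genes together, Hnrnpa3 held 67.45% and 62.33% in Setd2-CD4 cre, with exact 95% binomial intervals of 66.01 to 68.87% and 60.96 to 63.68%. In wild type it held 19.52% and 13.73%, with intervals of 18.14 to 20.96% and 12.47 to 15.05%. These intervals cover counting error only, not the spread between libraries or the way reads that fit both genes were divided. Those of the 2 libraries within each group did not overlap either, so they are no measure of a group difference. The shares of the groups lay further apart than those of the 2 libraries of either group.

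Added together, Hnrnpa3 and Gm6793 had 4197 and 4945 counts in Setd2-CD4 cre against 3105 and 2805 in wild type. Their summed level was 280.9 and 315.6 CPM in Setd2-CD4 cre against 190.3 and 188.2 CPM in wild type, with no overlap. As a single feature they rose 1.58-fold (log2 fold change 0.66, SE 0.12, adjusted p = 0.027, edgeR), against 6.13-fold for the row of Hnrnpa3 alone. The call on the sum was lost without wild-type library 13 or 15, while the call on Hnrnpa3 alone was kept. In these 2 fits the log2 fold change of the sum was 0.66 and 0.64, and that of Hnrnpa3 alone 2.90 and 2.37. Such fits take the spread of the lone wild-type library from the other group. Counts were made with RSEM, per the submitters' processing notes, which shares out reads that fit several genes; the part of this sharing in the 6.13-fold rise was not tested.

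Hnrnpk and Hnrnpa1 were the other members with such a copy in the table at more than 10% of their own counts, and their division with it moved far less. Hnrnpk, a poly(C)-binding hnRNP, held 47.42% and 45.09% of the counts it shares with Gm7964 in Setd2-CD4 cre, against 52.22% and 47.90% in wild type; the 2 transcripts were 99.27% identical over 1377 bases. Hnrnpa1, a well-studied repressor of exon use, held 82.72% and 82.20% of those shared with Gm7729 in Setd2-CD4 cre, against 83.94% and 83.48% in wild type, with 99.73% identity over 752 bases. Neither sum passed the threshold, with a log2 fold change of -0.12 for Hnrnpk with its copy (SE 0.10, adjusted p = 0.48, edgeR) and 0.16 for Hnrnpa1 with its copy (SE 0.11, adjusted p = 0.35).

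**Figure D2:**
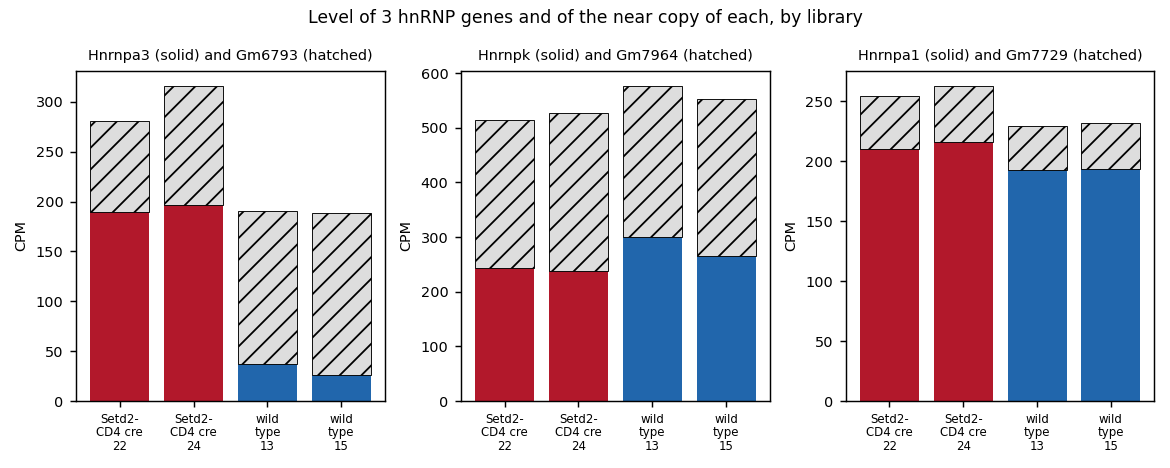
Level in CPM (y axis) of Hnrnpa3, Hnrnpk and Hnrnpa1 (solid, red in Setd2-CD4 cre and blue in wild type) and of the near-identical copy of each stacked on top (hatched), with 1 bar per library. The solid part of the Hnrnpa3 bars is 189.5 and 196.7 CPM in Setd2-CD4 cre against 37.1 and 25.8 CPM in wild type, while the whole bars reach 280.9 and 315.6 CPM against 190.3 and 188.2 CPM.

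The promoter of Hnrnpa3 is shown because it belongs to the only member called higher and lies outside the stretch shared with Gm6793. These are the 250 bases before its start in RefSeq (GRCm38.p6, chr2:75659009-75659258, plus strand), of which 73.2% are G or C; capitals mark CCAAT on either strand, the letters bound by NF-Y, and CACGTG, the E-box of MYC and MAX.
Hnrnpa3 promoter: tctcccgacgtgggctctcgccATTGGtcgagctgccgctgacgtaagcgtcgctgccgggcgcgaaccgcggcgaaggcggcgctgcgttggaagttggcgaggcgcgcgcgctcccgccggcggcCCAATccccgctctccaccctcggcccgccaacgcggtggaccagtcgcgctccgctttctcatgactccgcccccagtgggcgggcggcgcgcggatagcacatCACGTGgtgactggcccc
RefSeq promoters of 300 bases (250 before the start and 50 after) were matched for 57 of the 65 genes. Searched on both strands, CCAAT was found in 27 of them, 47.4%, against 37.9% of 27025 promoters, 1 for each gene symbol. CACGTG was in 8, 14% against 7.24%, and the ETS letters CCGGAAG were in 15, 26.3% against 9.12%. The E2F letters GGCGGGAA were in 7, 12.3% against 2.24%, and the NRF1 letters GCATGCGC in 2, 3.51% against 2.8%. The 27025 promoters were not matched to those of the members by expression or by content of G and C. The shares therefore cannot show a trait particular to splicing factors. No searched motif is contained in another, and the matches describe the sequence only.

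Among the 20 hnRNP genes, the 19 other than Hnrnpa3 did not pass the threshold. Both Setd2-CD4 cre libraries lay above both wild-type libraries for 7 of the 20 and below for 9, with a median log2 fold change of -0.11; over all genes tested, 31.1% lay above and 32.7% below in this way, with a median of -0.0013. Hnrnpc, the most abundant of the family per length (mean FPKM 131), had 347.8 and 532.1 CPM in Setd2-CD4 cre against 316.6 and 451.4 CPM in wild type; it binds uridine tracts on new transcripts. Its 2 libraries within each group differed by more than the groups did (log2 fold change 0.20, SE 0.24, adjusted p = 0.61, edgeR).

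The hnRNP genes closest to the threshold were chosen after their values were seen. Hnrnpdl, a relative of the AU-rich element binding protein Hnrnpd, had 428.2 and 350.4 CPM in Setd2-CD4 cre against 277.3 and 250.6 CPM in wild type (log2 fold change 0.56, SE 0.14, adjusted p = 0.052, edgeR). Hnrnpab, an A/B-type hnRNP, had 235.2 and 364.8 CPM in Setd2-CD4 cre against 521.6 and 527.1 CPM in wild type (log2 fold change -0.81, SE 0.20, adjusted p = 0.054). Hnrnpm, whose locus overlaps March2 on the same strand, had 160.5 and 186.4 CPM in Setd2-CD4 cre against 237.4 and 249.95 CPM in wild type (log2 fold change -0.49, SE 0.13, adjusted p = 0.057). By DESeq2, which called 8.27% of all genes tested higher and 6.87% lower, all 3 were called (adjusted p = 0.012, 0.0042 and 0.027). In all 3 the groups did not overlap, and Hnrnpab differed widely between the Setd2-CD4 cre libraries. Hnrnpll, named for its role as the regulator of CD45 exons, had 106.4 and 114.1 CPM in Setd2-CD4 cre against 104.4 and 109.1 CPM in wild type, so its groups overlapped (log2 fold change 0.05, SE 0.13, adjusted p = 0.83); this sign turned to -0.01 with scaling by library total.

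The 11 SR protein genes gave no call, and all their non-overlapping differences ran downward: 7 had both Setd2-CD4 cre libraries below both wild-type libraries, 0 had them above, and 4 overlapped, where 32.7% of all genes tested lay below and 31.1% above. Their median log2 fold change was -0.27, and 5 had an unadjusted p under 0.05, all lower in Setd2-CD4 cre, where 15.5% of all genes tested were lower at that p. Srsf2, also known as SC35, had the largest difference, with 197.2 and 267.5 CPM in Setd2-CD4 cre against 333.4 and 359.3 CPM in wild type (log2 fold change -0.58, SE 0.16, adjusted p = 0.070, edgeR). Srsf7, the highest of the family per length (mean FPKM 75.8), had 132.2 and 165.4 CPM in Setd2-CD4 cre against 194.0 and 197.4 CPM in wild type (log2 fold change -0.39, SE 0.14, adjusted p = 0.12). In both, library 22 was the lowest of the 4. By DESeq2, which called 6.87% of all genes tested lower, Srsf2 alone of the family was called lower (adjusted p = 0.027). Srsf12, named after its values were seen, varied most of the family within wild type, with 4.35 and 3.96 CPM in Setd2-CD4 cre against 1.59 and 6.10 CPM in wild type.

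The U2AF and SF3 genes, which act in the recognition of the 3′ splice site and the branch site, also gave no call by edgeR. At an unadjusted p under 0.05 there were 0 of 3 U2AF genes and 2 of 9 SF3 genes, both lower. Of all genes tested, 16.2% were higher and 15.5% lower at that p. All 3 U2AF genes had both Setd2-CD4 cre libraries below both wild-type libraries, as did 32.7% of all genes tested. Their log2 fold changes lay between -0.30 and -0.19. U2af1, whose protein contacts the AG at the end of the intron, had 32.8 and 34.5 CPM in Setd2-CD4 cre against 38.6 and 44.3 CPM in wild type (log2 fold change -0.30, SE 0.14, adjusted p = 0.19, edgeR). U2af2, whose protein binds the pyrimidine tract beside it, had 117.4 and 132.8 CPM in Setd2-CD4 cre against 143.8 and 150.7 CPM in wild type (log2 fold change -0.24, SE 0.13, adjusted p = 0.25). The third, U2af1l4, a U2af1-like gene named to complete the family, had 38.0 and 42.6 CPM in Setd2-CD4 cre against 47.2 and 44.6 CPM in wild type (log2 fold change -0.19, SE 0.13, adjusted p = 0.37).

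Of the 9 SF3 genes, 4 had both Setd2-CD4 cre libraries below both wild-type libraries and 1, Sf3b1, above. Over all genes tested, 32.7% lay below and 31.1% above in this way. Sf3a3, a subunit of SF3A, differed most, with 63.4 and 69.5 CPM in Setd2-CD4 cre against 92.5 and 96.0 CPM in wild type (log2 fold change -0.50, SE 0.13, adjusted p = 0.056, edgeR). By DESeq2, which called 6.87% of all genes tested lower, Sf3a3 was called (adjusted p = 0.029). Sf3b2, the highest per length (mean FPKM 124), had 387.1 and 423.9 CPM in Setd2-CD4 cre against 395.9 and 398.3 CPM in wild type. Its log2 fold change of 0.03 (SE 0.11, adjusted p = 0.87) turned to -0.03 with scaling by library total. Sf3b1, named after its values were seen, which holds the branch site and is mutated in human myelodysplastic syndromes, had 1075 and 958.1 CPM in Setd2-CD4 cre against 871.1 and 849.8 CPM in wild type (log2 fold change 0.24, SE 0.11, adjusted p = 0.19).

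Among the 13 PRPF genes, Prpf31 fell in Setd2-CD4 cre. Its protein joins the U4/U6 and U5 particles and is mutated in a form of human retinitis pigmentosa. Prpf31 (ENSMUSG00000008373, chr7:3629985-3642486, plus strand) had 467 and 722 counts in Setd2-CD4 cre against 1181 and 1163 in wild type. Its level was 31.3 and 46.1 CPM in Setd2-CD4 cre against 72.4 and 78.0 CPM in wild type, a 1.94-fold fall (log2 fold change -0.96, SE 0.20, adjusted p = 0.035, edgeR). The groups did not overlap, and library 22 was lower than 24. The call was lost without wild-type library 13 or 15, where the log2 fold change was -1.02 and -0.91. It was also lost with limma on log2(FPKM + 1) (adjusted p = 0.058). Without library 24 the log2 fold change was -1.27, against -0.70 without library 22.

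Tfpt, which starts 56 bases from Prpf31 in the opposite direction, had 9.37 and 10.98 CPM in Setd2-CD4 cre against 11.3 and 11.1 CPM in wild type (log2 fold change -0.14, SE 0.19, adjusted p = 0.65, edgeR). The antisense gene that overlaps Prpf31, Gm15927, had 8 and 1 counts in Setd2-CD4 cre and 10 and 8 in wild type, few beside those of Prpf31. Prpf8, the core protein around the catalytic centre and the highest of the family per length (mean FPKM 71.8), had 654.8 and 500.6 CPM in Setd2-CD4 cre against 623.2 and 673.8 CPM in wild type (log2 fold change -0.17, SE 0.15, adjusted p = 0.48). Library 22 lay between the wild-type libraries and library 24 below them. Prpf39, which is named here after its values were seen and belongs to the U1 particle in yeast, had 181.4 and 145.9 CPM in Setd2-CD4 cre against 123.2 and 113.0 CPM in wild type (log2 fold change 0.47, SE 0.15, adjusted p = 0.088). It overlaps Fkbp3 on the other strand, whose counts were 1018 and 1342 in Setd2-CD4 cre against 1770 and 1649 in wild type; no source used here says whether counting used strand, and without it the reads of the shared stretch cannot be told apart.

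The CELF and MBNL genes, regulators of tissue-specific exons, gave 1 call. Mbnl3, a zinc-finger protein that holds back muscle differentiation in mouse cells, fell in Setd2-CD4 cre. Its gene (ENSMUSG00000036109) lies at chrX:51117269-51206532 on the minus strand. Mbnl3 had 365 and 394 counts in Setd2-CD4 cre against 609 and 607 in wild type, or 24.4 and 25.1 CPM in Setd2-CD4 cre against 37.3 and 40.7 CPM in wild type. The 2 libraries of each group nearly coincided, and the fall was 1.57-fold (log2 fold change -0.65, SE 0.14, adjusted p = 0.038, edgeR). The call was lost without wild-type library 13 or 15, where the log2 fold change was -0.72 and -0.60. It was also lost with limma on log2(FPKM + 1) (adjusted p = 0.071).

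Mbnl1, the main muscleblind regulator of exon choice, was, of the 63 splicing factor genes tested, the one whose Setd2-CD4 cre libraries differed most, and it is named for that spread after its values were seen. It had 953.4 and 371.8 CPM in Setd2-CD4 cre against 559.7 and 492.3 CPM in wild type, so that library 22 lay above and library 24 below both wild-type libraries (log2 fold change 0.33, SE 0.38, adjusted p = 0.59, edgeR). Its direction rests on the library: without library 24 it was called higher (log2 fold change 0.85, adjusted p = 0.0060) and without library 22 lower (log2 fold change -0.49, adjusted p = 0.040). Mbnl2, the highest of the 3 per length (mean FPKM 20.2), had 126.7 and 86.0 CPM in Setd2-CD4 cre against 79.4 and 77.0 CPM in wild type (log2 fold change 0.44, SE 0.20, adjusted p = 0.18).

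Celf1, which binds GU-rich sequences and is the highest CELF gene per length (mean FPKM 6.82), had 179.5 and 173.9 CPM in Setd2-CD4 cre against 216.8 and 195.1 CPM in wild type (log2 fold change -0.22, SE 0.12, adjusted p = 0.25, edgeR). Celf4, best known from neurons, was barely detected, with 9 and 6 counts in Setd2-CD4 cre against 18 and 14 in wild type (log2 fold change -1.05, SE 0.52, adjusted p = 0.22). The groups of both genes did not overlap, but the low counts of Celf4 leave a wide error.

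**Figure D3:**
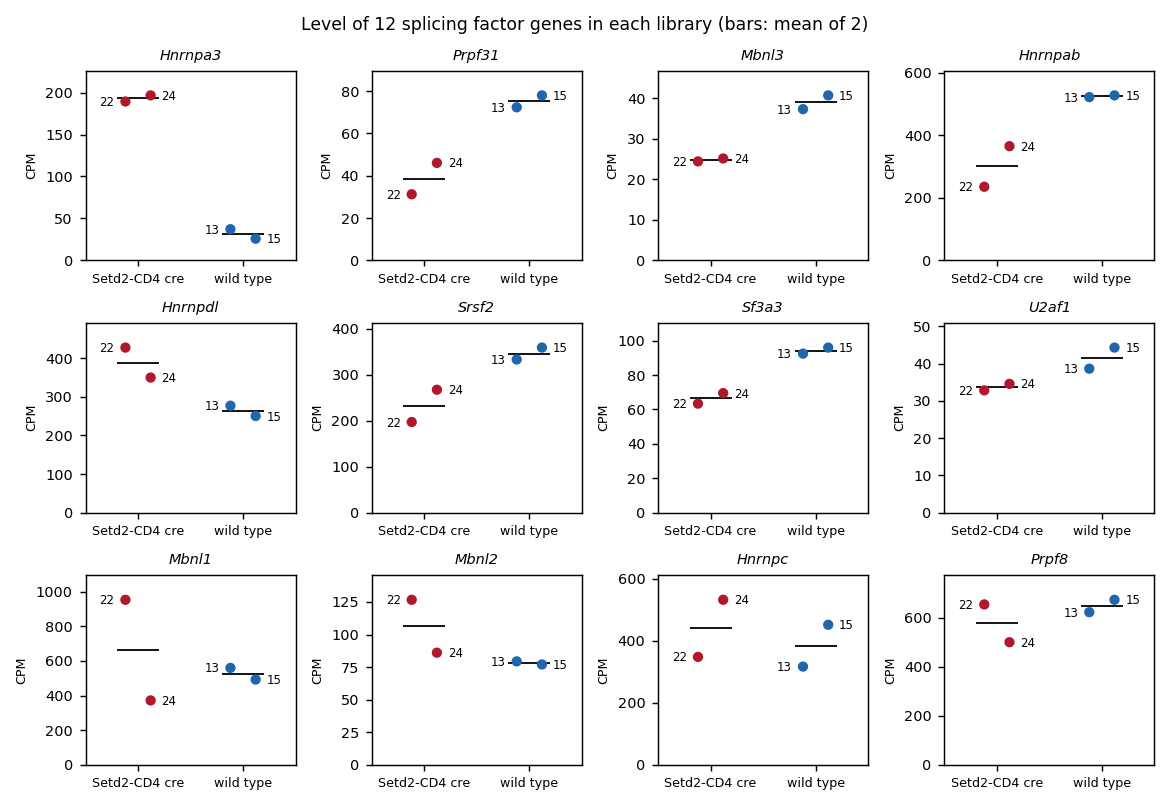
Level in CPM (y axis, from 0) of 12 splicing factor genes in each library, with Setd2-CD4 cre in red and wild type in blue; numbers give the library and bars the mean of 2 libraries. Hnrnpa3 at 189.5 and 196.7 against 37.1 and 25.8 CPM shows the widest separation, and Mbnl1 at 953.4 and 371.8 CPM in Setd2-CD4 cre lies on both sides of the wild-type libraries.

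Over the 63 genes tested, 12 had both Setd2-CD4 cre libraries above both wild-type libraries, 31 had them below and 20 overlapped, against a background of 31.1% above and 32.7% below. Fitted values were above 0 for 22 genes and below 0 for 41, against 6627 and 6652 of all genes tested. At an unadjusted p under 0.05 there were 4 genes higher and 13 lower, against 16.2% and 15.5% of all genes tested. The median log2 fold change was -0.16, against -0.0013 over all genes tested. Of the 63 genes, 60 did not pass the threshold.

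Each library was also set against the mean of wild type, gene by gene. The median of the 63 genes was -0.19 and -0.14 (log2) in Setd2-CD4 cre libraries 22 and 24, against 0.0028 and -0.0028 in wild-type libraries 13 and 15, where values mirror each other by construction. In Setd2-CD4 cre, 40 and 42 of the 63 genes lay below the mean of wild type. The same medians over all genes tested were -0.0061 and -0.0059 in Setd2-CD4 cre. As a share of all counts, the 65 genes held 1.367% and 1.422% in Setd2-CD4 cre against 1.495% and 1.494% in wild type. The Setd2-CD4 cre libraries were the more variable group: the median size of the log2 ratio between them was 0.18, against 0.11 between the wild-type libraries. This was not particular to these genes, as the same medians over all genes tested were 0.26 and 0.13.

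**Figure D4:**
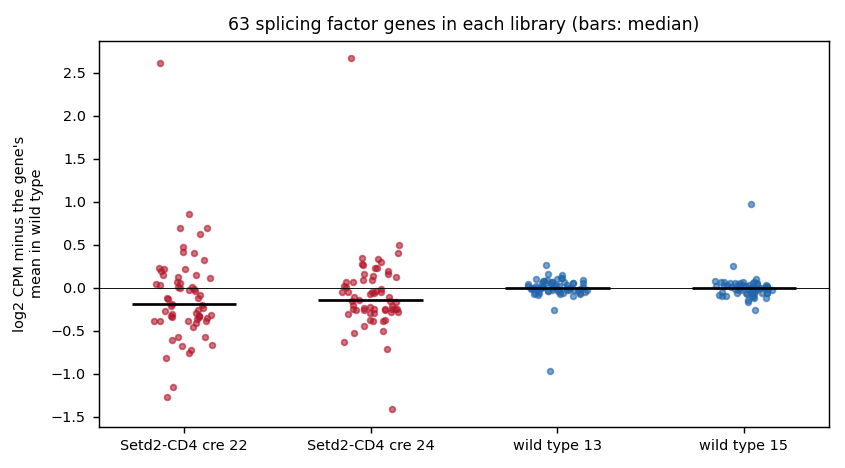
Each of the 63 splicing factor genes tested in each library, as log2 CPM minus the mean of the gene's log2 CPM in wild type (y axis); bars mark the median, -0.19 and -0.14 in Setd2-CD4 cre libraries 22 and 24. The 2 wild-type columns mirror each other because the mean of the 2 libraries is their zero, and the topmost red point in each Setd2-CD4 cre library is Hnrnpa3.

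Other genes of the splicing machinery were counted from lists. None of 27 core proteins of the small nuclear particles passed the threshold, but 18 had both Setd2-CD4 cre libraries below both wild-type libraries, 2 had them above, and their median log2 fold change was -0.25; of all genes tested, 32.7% lay below and 31.1% above. By this edgeR test 0 were called, while 8 had an unadjusted p under 0.05, all lower, where 15.5% of all genes tested were lower at that p. None of 9 partners of the U2 particle (0 at an unadjusted p under 0.05) or 18 proteins of the Prp19 complex and the catalytic steps (1 higher and 2 lower at that p) passed either. A list of 8 genes tied to H3K36 methylation, with Setd2 itself among them, also gave no call (2 higher and 1 lower at that p). Of all genes tested, 16.2% were higher at that p.

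Among 9 proteins of the minor spliceosome, which removes a rare class of introns, 1 rose and 1 fell. Calls over all genes tested were 5.53% higher and 4.59% lower. At an unadjusted p under 0.05 (edgeR), 3 of the 9 were higher and 1 lower. Zrsr1, a relative of U2af1, had 40.0 and 40.1 CPM in Setd2-CD4 cre against 21.9 and 21.7 CPM in wild type (log2 fold change 0.88, SE 0.14, adjusted p = 0.020, edgeR). Rnpc3, which bridges the U11 and U12 particles, had 31.1 and 26.6 CPM in Setd2-CD4 cre against 51.1 and 41.3 CPM in wild type (log2 fold change -0.68, SE 0.16, adjusted p = 0.0496). Of 21 SR-related proteins and SR kinases, Clk1, a kinase that phosphorylates SR proteins, rose. It had 630.9 and 515.9 CPM in Setd2-CD4 cre against 344.1 and 310.9 CPM in wild type (log2 fold change 0.81, SE 0.14, adjusted p = 0.024, edgeR). Of these 21, 8 had both Setd2-CD4 cre libraries above both wild-type libraries and 5 below, against 31.1% and 32.7% of all genes tested. Their median log2 fold change was 0.10. At an unadjusted p under 0.05 (edgeR), 5 were higher and 1 lower, against 16.2% and 15.5% of all genes tested. Near copies were not sought for the genes of these lists.

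Of 31 other regulators of alternative splicing, 28 were tested, 1 rose and 1 fell. Calls over all genes tested were 5.53% higher and 4.59% lower. At an unadjusted p under 0.05 (edgeR), 2 of the 28 were higher and 3 lower, against 16.2% and 15.5% of all genes tested. Esrp1, known from epithelial cells, rose but was at 2.01 and 1.09 CPM in Setd2-CD4 cre against 0.0613 and 0 CPM in wild type (adjusted p = 0.026, edgeR), so wild type was under the level of 3 counts and no fold is given. Taf15, an RNA-binding protein of the FET family, had 86.9 and 99.8 CPM in Setd2-CD4 cre against 134.3 and 145.3 CPM in wild type (log2 fold change -0.58, SE 0.14, adjusted p = 0.045). Of 9 exon junction complex genes, Magohb fell, with 4.89 and 4.85 CPM in Setd2-CD4 cre against 8.40 and 10.5 CPM in wild type (log2 fold change -0.96, SE 0.23, adjusted p = 0.048). In 6 of these 9, both Setd2-CD4 cre libraries lay below both wild-type libraries and in 2 above, against 32.7% and 31.1% of all genes tested. Their median log2 fold change was -0.25. At an unadjusted p under 0.05 (edgeR), 0 of the 9 were higher and 4 lower. Of 12 factors of nonsense-mediated decay, Smg6, its endonuclease, rose, with 148.9 and 127.1 CPM in Setd2-CD4 cre against 92.8 and 93.4 CPM in wild type (log2 fold change 0.57, SE 0.14, adjusted p = 0.048). At an unadjusted p under 0.05 (edgeR), 2 of the 12 were higher and 1 lower.

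Markers of other cell types were summed from lists. Of all genes tested, 5.53% were called higher and 4.59% lower, and at an unadjusted p under 0.05 (edgeR) 16.2% were higher and 15.5% lower. Of 5 NK and innate lymphoid markers tested of 8, 2 rose and 1 fell, and the list summed to 133.8 and 174.8 CPM in Setd2-CD4 cre against 60.6 and 55.6 CPM in wild type. Most of that sum was Gzma, a granzyme of cytotoxic cells, at 111.8 and 159.1 CPM in Setd2-CD4 cre against 34.0 and 29.6 CPM in wild type. The other 7 markers summed to 22.1 and 15.6 CPM in Setd2-CD4 cre against 26.6 and 26.0 CPM in wild type. Most of that wild-type sum was Eomes, the marker that fell, at 10.2 and 7.53 CPM in Setd2-CD4 cre against 22.7 and 21.7 CPM in wild type. Klre1, which rose with Gzma, had 5.09 and 4.66 CPM in Setd2-CD4 cre against 1.16 and 2.08 CPM in wild type. Fitted values were above 0 for 4 of the 5 markers tested and below 0 for 1. Of 5 gamma-delta T cell markers tested of 7, 3 rose, and the list summed to 42.5 and 62.7 CPM in Setd2-CD4 cre against 20.3 and 20.1 CPM in wild type. Those that rose were Tcrg-C1, Tcrg-C2 and Cd163l1 (log2 fold changes 1.98, 1.48 and 3.95, adjusted p = 0.035, 0.039 and 0.011, edgeR). The groups overlapped for Trdc, at 10.1 and 5.81 CPM in Setd2-CD4 cre against 5.09 and 6.57 CPM in wild type (log2 fold change 0.45, adjusted p = 0.37). They also overlapped for Tcrg-C4 (log2 fold change -0.02, adjusted p = 0.98). B cell markers summed to 310.8 and 352.3 CPM in Setd2-CD4 cre against 235.2 and 238.0 CPM in wild type, with 1 of 10 called higher and 8 higher at an unadjusted p under 0.05. Their median log2 fold change was 1.16, and 9 of the 10 had both Setd2-CD4 cre libraries above both wild-type libraries, against 31.1% of all genes tested. Igkc, the B cell marker called, had 8.03 and 6.83 CPM in Setd2-CD4 cre against 2.94 and 2.08 CPM in wild type (log2 fold change 1.56, SE 0.29, adjusted p = 0.028, edgeR). Ighm, the heavy chain of IgM, made up most of the sum, and the other 9 markers summed to 64.2 and 44.4 CPM in Setd2-CD4 cre against 28.6 and 26.5 CPM in wild type. CD8 markers summed to 182.2 and 78.4 CPM in Setd2-CD4 cre against 124.8 and 183.3 CPM in wild type, with 0 of 2 called (0 at an unadjusted p under 0.05). Myeloid markers summed to 31.9 and 36.3 CPM in Setd2-CD4 cre against 37.0 and 38.0 CPM in wild type, with 1 of 7 tested lower, and erythroid markers to 2.48 and 3.26 CPM in Setd2-CD4 cre against 3.49 and 2.48 CPM in wild type, with 0 of 2 tested called (0 at that p). Flt3 was the myeloid marker called, at 2.01 and 1.79 CPM in Setd2-CD4 cre against 7.42 and 4.16 CPM in wild type (log2 fold change -1.61, SE 0.37, adjusted p = 0.045, edgeR). Fitted values of the 7 myeloid markers were above 0 for 4 and below 0 for 3. The part of these differences in the levels of the splicing factors was not tested.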

How the data were processed

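Illumina HiSeq libraries were made from TRIzol-extracted total RNA, per the labels' protocols. The tools named in the submitters' processing notes are Bowtie2 and RSEM, on GRCm38.p6 (mm10); their versions, the counting options and the use of strand were not given in the sources used here. The deposited table gave whole-number counts per gene and FPKM, which the authors scaled to 1 fixed length per gene (0 of 9484 genes checked differed between libraries by more than 0.01%). That length was a median of 1.26 times the exon union in GENCODE M21, so FPKM between genes is approximate. All 65 members had the same identifier in GENCODE M21.

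Counts were compared with edgeR 4.0.16 in R 4.3.3 (filterByExpr with a minimum count of 10 and a minimum total of 15, TMM factors 0.959, 1.00, 1.02 and 1.02 for libraries 22, 24, 13 and 15, glmQLFit and glmQLFTest, two-sided). P-values were adjusted over 13279 genes; 2 against 2 libraries cannot give an exact p below 0.333. On simulated counts over 13077 genes, the test recovered 10.77%, 61.54% and 96.83% of genes changed by folds of 1.5, 2 and 4, and 5.26% of calls were false. The simulation gave both groups the same spread, set by a trend over expression level. It changed 65, 65 and 63 of the genes tested by these folds, while in the data 734 genes were called higher and 610 lower. In the data, the median size of the log2 ratio over all genes tested was 0.26 between the Setd2-CD4 cre libraries and 0.13 between the wild-type libraries. The simulated shares therefore may not hold for these data. Near copies were sought with BLAST+ 2.17.0 on GENCODE M21 transcripts, and promoters came from RefSeq. Alternatives were DESeq2 1.42.0 and its size factors, scaling by library total, no filter, limma 3.58.1 (voom, and log2(FPKM + 1)), each library left out and, chosen after seeing the data, near copies summed. Other tools were Python 3.11.15, Biopython 1.88, pandas 2.3.3 and matplotlib 3.10.9.

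The name patterns that define the members, and the lists, were chosen with earlier results of these data known. The rule named Hnrnpa3, members past the threshold, in each family the member with the largest log2 fold change and the one with the highest mean FPKM, members that could not be tested, and list genes past the threshold. Hnrnpdl, Hnrnpab, Hnrnpm, Hnrnpll, Srsf12, Sf3b1, U2af1l4, Prpf39, Mbnl1, Trdc and Tcrg-C4 fall outside it and were added with their values known.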

Additional observations from a re-analysis of the deposited data

How the results depend on the processing

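The row of Hnrnpa3 was called higher under the 10 alternatives that kept it separate; its sum with Gm6793 was called with all libraries but not without wild-type library 13 or 15. Of 14 named genes under 11 alternatives (154 values), 3 had a call to lose: 6 values lost a call, 11 gained one, 6 values without a call turned sign, and 0 reversed a called direction. Mbnl1, outside these 14, was called in opposite directions without library 24 and without library 22. All genes called numbered 734 higher and 610 lower; without the filter there were 1261 and 1088, and with limma on log2(FPKM + 1) 445 were higher. Members called lower, 2 as reported, were 4 with scaling by library total (5.81% of all genes lower), 6 without the filter (5.77%), 6 with DESeq2 (6.87%) and 0 with limma on log2(FPKM + 1) (3.36%); members called higher, 1 as reported, were 2 without the filter (6.69% of all genes higher) and 2 with DESeq2 (8.27%). The member median, -0.16, was -0.22 with scaling by library total and -0.12 with near copies summed. Scaling by library total moved the median of all genes to -0.058.

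Leaving out each library in turn gave 120 to 2122 genes called higher and 70 to 2002 lower. Members called higher ranged from 1 to 7 and lower from 0 to 20, with a member median between -0.19 and -0.13. Without library 24, 15.5% of all genes were called higher and 14.6% lower, with 7 members higher and 20 lower; without library 22, 7.24% and 6.55%, with 2 and 6. Without wild-type library 13 or 15, Hnrnpa3 was the only member called; all genes then gave 1.39% and 0.936% or 0.868% and 0.506%. Such a fit takes the spread of the lone library from the other group. No paired analysis was possible because the groups share no replicate numbers. With 2 libraries a group, changes of 1.5-fold were mostly not detectable in the simulated counts. Those counts had the same spread in both groups and fewer changed genes than were called in the data.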
